A study of Mus musculus with 6 samples.

Results

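The HOX genes are the 39 genes of the mouse clusters Hoxa, Hoxb, Hoxc and Hoxd, and they were taken by symbol (a cluster letter and a paralog number) from a table of 55341 genes, with genes that have no read included. The clusters hold 11, 10, 9 and 9 of them. Their RNA was read in 6 libraries from cultured mouse cerebellar granule neurons (CGNs), of which 3 were from cultures given the vehicle DMSO and 3 from cultures given GSK-126, a small-molecule inhibitor of the methyltransferase EZH2, at day in vitro 3 (DIV3). All cultures shared the same origin and handling per the study's methods: granule neuron progenitors purified on Percoll gradients from P6 to P8 cerebella of CD1-IGS pups of both sexes, with the mitotic blocker AraC added at DIV2 and RNA collected at DIV5. A biological replicate was the CGNs of pooled litters, so a library is a pool of animals. The sample titles name CGN and DIV3, and other labels name the tissue as cerebellum and the day as D3. The dose added at DIV3 is not given in the sources used here.

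HOX proteins are homeodomain transcription factors that give cells their position along the head-to-tail axis. Within a cluster the genes lie in the order in which they are used along that axis, so that low paralog numbers (anterior genes) act in the hindbrain and high ones (posterior genes) in the tail, limbs and urogenital tract. The cerebellum comes from the most anterior hindbrain, rhombomere 1, which is known for lacking HOX expression. Silent HOX clusters are textbook targets of Polycomb, whose PRC2 complex contains EZH2 and places H3K27me3 over CpG-rich promoters. The comparison therefore addresses how much RNA these genes gave in CGN cultures, and whether it differed once EZH2 was inhibited after the neurons had left the cell cycle.

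The promoters of Hoxd9, Hoxd8 and Hoxd3 are shown because Hoxd8 had the most reads of all HOX genes over the 6 libraries, while the genes of the next promoters on either side, Hoxd9 and Hoxd3, had 0. Of the 34 reads of Hoxd8, 29 were with GSK-126 and 5 with DMSO, where Hoxa2, Hoxb2 and Hoxb3 each had more. Each promoter is the 250 bases before a transcript start in RefSeq (build GRCm38.p6, plus strand), with CpG dinucleotides in capitals.
Hoxd9, chr2:74697513-74697762: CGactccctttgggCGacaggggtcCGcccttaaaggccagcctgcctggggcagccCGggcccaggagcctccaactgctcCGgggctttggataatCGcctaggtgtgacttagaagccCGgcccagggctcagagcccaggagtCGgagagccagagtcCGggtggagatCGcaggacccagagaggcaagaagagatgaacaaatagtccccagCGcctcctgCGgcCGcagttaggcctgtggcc
Hoxd8, chr2:74704365-74704614: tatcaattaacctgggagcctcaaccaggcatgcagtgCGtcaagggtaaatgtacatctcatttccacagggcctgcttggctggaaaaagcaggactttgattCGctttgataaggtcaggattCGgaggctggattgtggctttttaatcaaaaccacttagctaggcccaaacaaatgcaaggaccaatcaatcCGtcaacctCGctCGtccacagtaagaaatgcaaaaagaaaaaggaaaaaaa
Hoxd3, chr2:74711743-74711992: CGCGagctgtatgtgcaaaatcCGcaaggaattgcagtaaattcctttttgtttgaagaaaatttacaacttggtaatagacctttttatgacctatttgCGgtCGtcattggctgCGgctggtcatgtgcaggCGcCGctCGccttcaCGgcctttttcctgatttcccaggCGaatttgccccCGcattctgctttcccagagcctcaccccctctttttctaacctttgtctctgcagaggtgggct
The Hoxd8 window held 6 CpG and had a GC content of 44.4%, against 13 CpG and 65.2% for Hoxd9 and 12 CpG and 49.2% for Hoxd3. The Hoxd3 window also holds the annotated start of Hoxd4 (chr2:74711929), which had 3 reads. Other genes of the same strand overlap 62.3% of the exon bases of Hoxd3, which limits what its 0 means. RefSeq gave 24 such windows for 22 of the 39 genes. They had a median of 12.5 CpG (range 2 to 35), where the 32851 windows of all genes had a median of 6, and 19 of the 24 were above that median. The ratio of observed to expected CpG had a median of 0.721 in the HOX windows and 0.373 in all windows. The 14 windows of HOX genes with 0 reads had a median of 13 CpG, and those of HOX genes with a read a median of 7.5. Most of the latter were windows of genes with 8 reads or fewer, and Hoxb2 and Hoxb3 had no window. These CpG values are descriptions of the sequence, not tests. On either strand, the letters TGATTNAT, a PBX-HOX dimer motif, stood in 2 HOX windows (Hoxa2 and Hoxd11) and in 2.82% of all windows, and TATAAA, the TATA box, stood in 4 (Hoxa10, Hoxb8, Hoxd4 and Hoxd13) and in 12.4% of all, with no HOX window holding both.

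**Figure D1:**
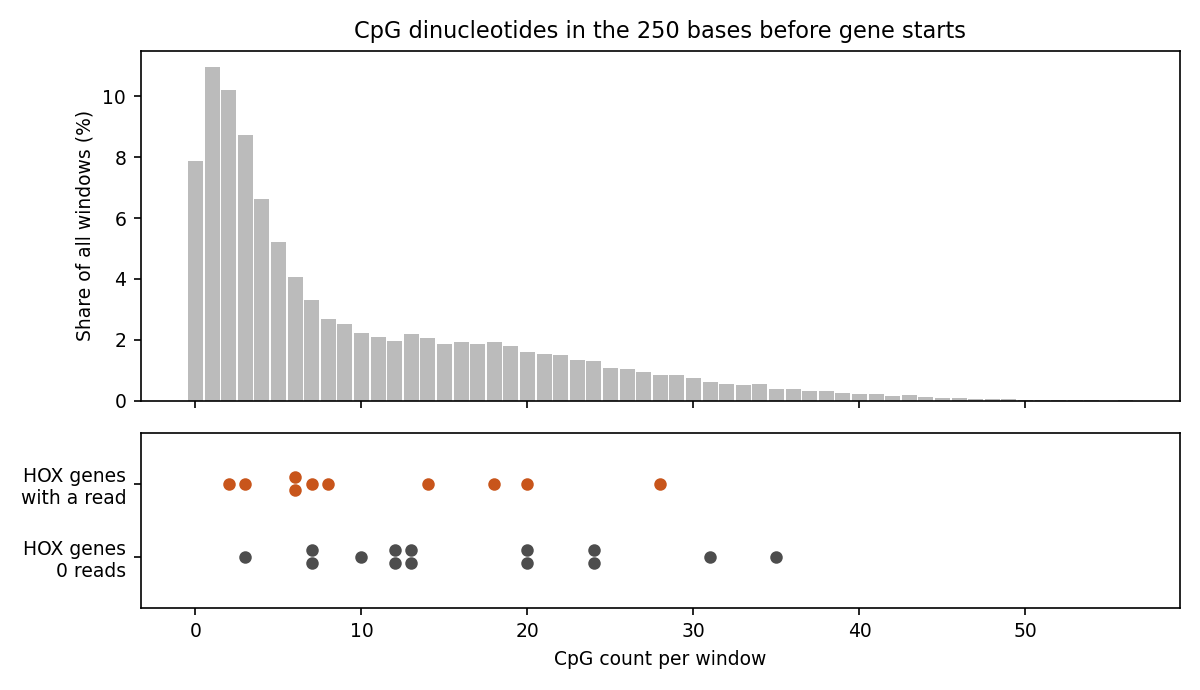
The upper panel plots the share of all 32851 promoter windows (y axis, percent) by their number of CpG dinucleotides (x axis, count in 250 bases), and each point of the lower panel is a window of a HOX gene on the same x axis, in orange with a read in at least 1 library and in grey with 0. The HOX windows lie between 2 and 35 CpG, and 19 of the 24 lie above the median of 6.

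HOX RNA was close to absent from the CGN cultures. Of the 39 genes, 20 (51.3%) had 0 reads in all 6 libraries, where 4701 of 21924 protein-coding genes (21.4%) had none. Another 11 had 1 to 5 reads over the 6 libraries, 2 had 6 to 9, and 6 had at least 10. All HOX genes together had 197 reads, of which 159 (80.7%) fell on those 6 genes, and the highest value of a HOX gene in a library was 12 reads. Hoxb3 alone had a read in every library, which 66.5% of protein-coding genes did. The 3 DMSO libraries had reads on 13 HOX genes and the 3 GSK-126 libraries on 15, with 9 in both groups. The 4 genes read in DMSO but not in GSK-126 had 17 reads together, and 6 genes were read in GSK-126 but not in DMSO.

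The libraries held between 7407189 and 13092763 counts on genes, so that 0 reads, with an upper limit of 3 counts, allow a level of up to 0.227 to 0.400 CPM (read counts scaled to library size) in a library and 0.0492 CPM over all 6. A 0 in these tables does not always mean that a gene is silent. Among 117 subunit genes of the proteasome, RNA polymerase II, translation initiation factor 3, complex I, the chaperonin, Mediator and the spliceosome, Psmd10 had 0 reads, Ndufs3 2 and the thymus-specific Psmb11 5, though no annotated gene overlaps their exons on the same strand. Of the 20 HOX genes with 0 reads, 17 had no such overlap, and Hoxd3 had 62.3% of its exon bases shared with Hoxd4 and the readthrough gene Gm28230. In bulk RNA, fewer cells that make a transcript and less transcript per cell cannot be told apart.

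The reads lay at the anterior ends of Hoxa and Hoxb, with Hoxd8, read mostly with GSK-126, as the exception. The 12 genes of paralog groups 1 to 4 held 141 of the 197 reads (71.6%), and 9 of them had a read. The 11 genes of groups 5 to 8 held 46 reads, 34 of them on Hoxd8, and 5 had a read. The 16 genes of groups 9 to 13, which pattern the trunk end, limbs and urogenital tract, held 10 reads (5.08%) spread over 5 genes. By cluster, Hoxa held 79 reads (40.1%), Hoxb 70 (35.5%), Hoxd 38 (19.3%) and Hoxc, which has no anterior paralogs before Hoxc4, 10 (5.08%). Genes that stayed at 0 were Hoxa6, Hoxa9, Hoxa10, Hoxa11 and Hoxa13 in the first cluster, Hoxb1, Hoxb6, Hoxb7, Hoxb8 and Hoxb13 in the next, Hoxc6, Hoxc8, Hoxc11 and Hoxc12 in Hoxc, and Hoxd1, Hoxd3, Hoxd9, Hoxd10, Hoxd12 and Hoxd13 in Hoxd.

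**Figure D2:**
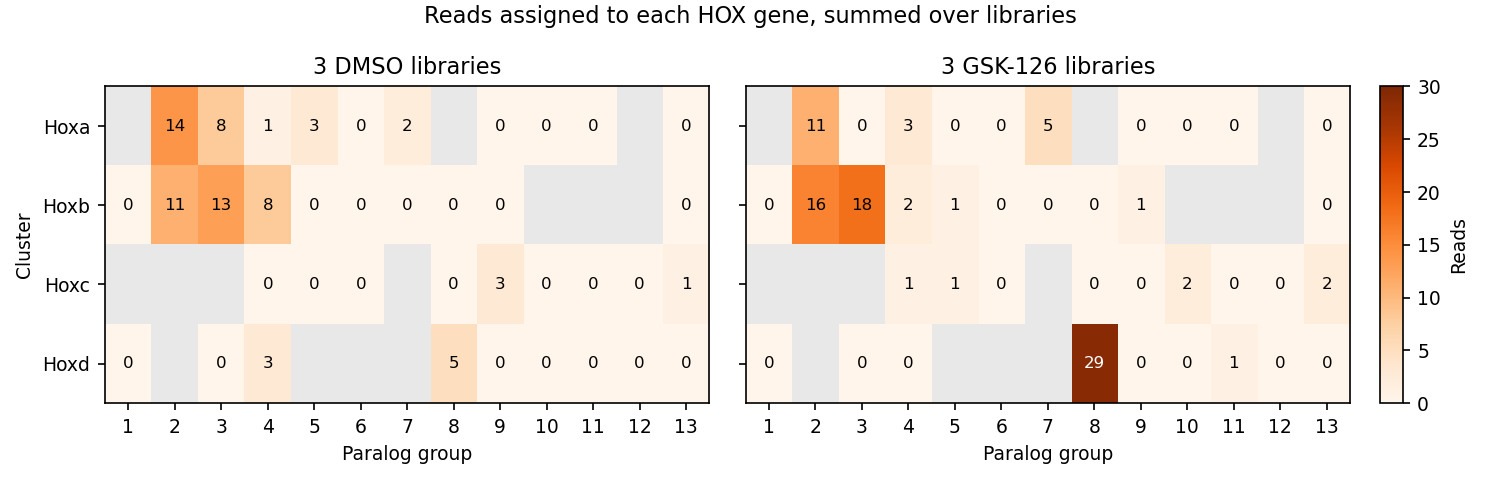
Each cell is a HOX gene, by cluster (rows) and paralog group (columns), with its reads summed over the 3 DMSO libraries on the left and the 3 GSK-126 libraries on the right, and grey cells are paralogs that these clusters lack or that are not shown. Reads gather in groups 1 to 4 of Hoxa and Hoxb in both panels, and Hoxd8 has 5 reads on the left and 29 on the right.

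Per kilobase of exon, the levels over the 6 libraries were highest for Hoxa2 (0.241 CPM per kb), with Hoxd8 at 0.215, Hoxb2 at 0.120 and Hoxb3 at 0.115. The libraries' SDs were 0.195, 0.213, 0.0758 and 0.0836 CPM per kb in the same order, so neighbours in this order did not differ beyond their spread. Hoxb4 followed at 0.0627 and Hoxa7 at 0.0428 CPM per kb, and the other 12 genes with a read had 0.0388 or less. The HOX gene with the most reads, Hoxd8, had a mean of 0.590 CPM, which 17771 genes of the table exceeded. None of the 39 passed the filter on low counts (edgeR's filterByExpr), which kept 16729 genes with a median of 24.1 CPM, so the fit on the filtered table gave no fold change for any HOX gene. The values below come from a fit over the 29476 genes with at least 1 read, added after this was seen.

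Hoxd8, a gene of the middle of the cluster that is used in the developing trunk, was read more often with GSK-126. It (ENSMUSG00000027102.4) lies at chr2:74704615-74707933 on the plus strand, and no other annotated gene overlaps its exons on either strand. Its reads numbered 1, 0 and 4 in DMSO replicates 1, 2 and 3, and 11, 6 and 12 in GSK-126 replicates 1, 2 and 3. These are 0.115, 0 and 0.347 CPM with DMSO and 0.832, 0.645 and 1.60 CPM with GSK-126. Every GSK-126 library was above every DMSO library, and every GSK-126 library was above the DMSO library of its own number. The reads of each group came to 5 with DMSO (exact 95% Poisson interval 1.62 to 11.7) and 29 with GSK-126 (19.4 to 41.6), intervals that cover counting error only. The means were 0.154 ± 0.177 and 1.03 ± 0.506 CPM (SD, n = 3 each). An exact two-sided permutation test that ignored the replicate numbers gave p = 0.1, and with 3 libraries a side it cannot give less. The log2 fold change was 2.59 (standard error 1.02), with an unadjusted p of 0.0196 and a Benjamini-Hochberg adjusted p of 0.853 (edgeR, quasi-likelihood), so Hoxd8 did not pass. With the replicate number as a block it was 2.82 (standard error 1.14, edgeR's adjusted p = 0.158), and DESeq2 gave 2.69 with an unadjusted p of 0.0217 and no adjusted p. Hoxd8 is given library by library for having at least 10 counts in a library, which it had with GSK-126 alone. The values and tests above are therefore not independent of that choice.

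Hoxa3, which patterns the pharyngeal arches that form the thymus and parathyroids, was read in DMSO alone. It (ENSMUSG00000079560.13, chr6:52169062-52213336, minus strand) had 3, 3 and 2 reads in DMSO replicates 1, 2 and 3 (0.345, 0.279 and 0.173 CPM) and 0 in all 3 GSK-126 libraries. Against the limit of 0 reads over the 3 GSK-126 libraries (3 counts, 0.0999 CPM), its DMSO mean of 0.266 ± 0.0866 CPM (SD, n = 3) was at least 2.66-fold higher. That bound leaves out the counting error of the DMSO reads, and the exact 95% Poisson intervals of the summed reads, 3.45 to 15.8 for the 8 with DMSO and 0 to 3.69 for the 0 with GSK-126, overlapped. Here too the exact two-sided permutation test could give no less than its p of 0.1. Of its exon bases, 25.4% overlap genes on the opposite strand, among them Hoxaas2 and Hoxaas3. Hoxa3 was named after its values were seen, as were Hoxa2, Hoxb3 and Hoxb4.

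For Hoxb2, Hoxb3 and Hoxa2, anterior genes of the hindbrain, the differences between groups were smaller than the spread between libraries. Hoxb2, which works in rhombomere 4 and the facial motor neurons (ENSMUSG00000075588.6, chr11:96350525-96354012, plus strand), had 4, 0 and 7 reads with DMSO (0.460, 0 and 0.607 CPM) and 10, 4 and 2 with GSK-126 (0.756, 0.430 and 0.266 CPM). The groups overlapped, and the fitted value, 0.48 on the log2 scale (standard error 1.07), changed sign without DMSO replicate 2 or GSK-126 replicate 1, to -0.082 and -0.016. Hoxb3, its neighbour with roles in the posterior hindbrain, had 3, 1 and 9 reads with DMSO and 8, 9 and 1 with GSK-126. The lowest and the highest of these values lay in different pairs in the 2 groups, and the log2 fold change was 0.49 (standard error 0.98). Hoxa2, which patterns rhombomere 2 and the second pharyngeal arch, had 9, 5 and 0 reads with DMSO and 6, 2 and 3 with GSK-126. DMSO replicate 1, with the most reads of Hoxa2, set its sign: the log2 fold change was -0.41 (standard error 1.13) with all libraries and 0.65 without that replicate. Hoxb4, expressed from the caudal hindbrain backwards, had 2, 5 and 1 reads with DMSO and 1, 1 and 0 with GSK-126, with overlapping groups.

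**Figure D3:**
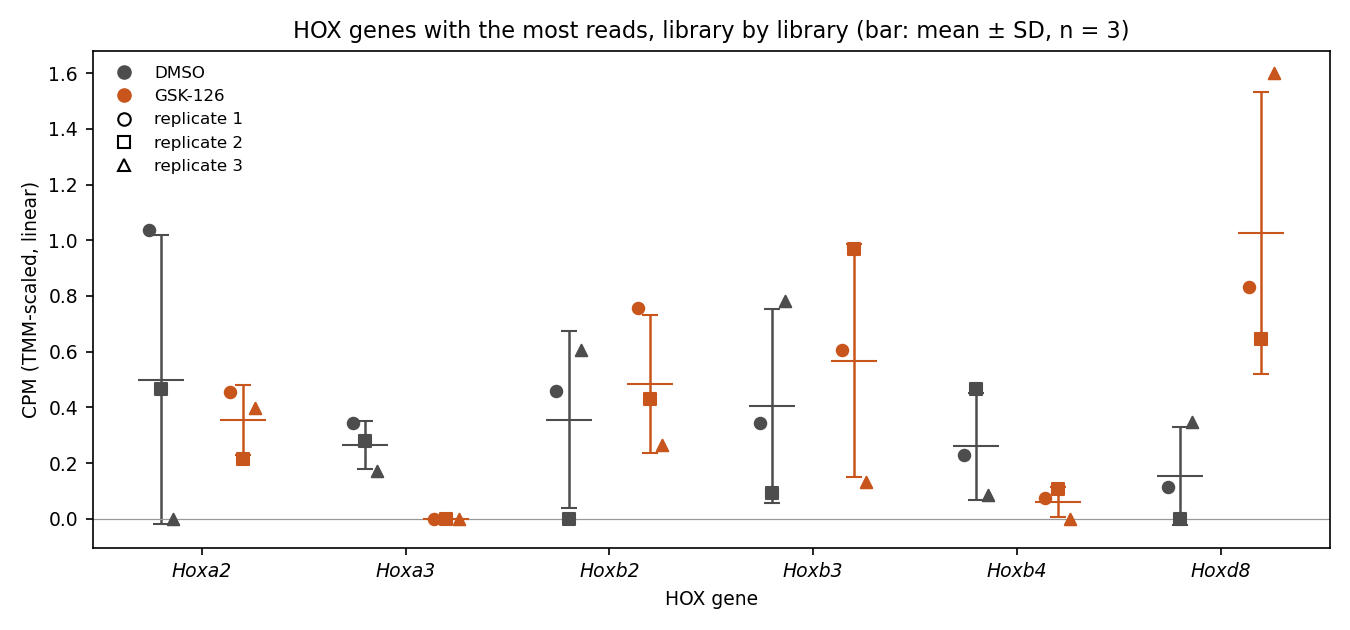
CPM (linear y axis) of 5 HOX genes with at least 10 reads and of Hoxa3 in each library (x axis by gene, DMSO in grey and GSK-126 in orange, marker by replicate number), with the mean and SD of 3 libraries. The groups of Hoxd8 and Hoxa3 do not overlap, in opposite directions, and those of the other 4 genes do.

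A further 12 genes with a read had between 1 and 7 reads over the 6 libraries, too few to compare groups. Hoxa7, a trunk gene, had 7 reads, of which 5 lay in GSK-126 replicate 2. Hoxa5 had its 3 reads in DMSO replicate 3, Hoxc9 its 3 in DMSO replicate 1 and Hoxd4 its 3 in DMSO replicate 2. These are reads of single libraries, and 9 of the 19 genes were read in 1 library. Hoxc13, a gene of hair and nail, had 1 read in DMSO replicate 1 and 2 in GSK-126 replicate 1, Hoxc10 had 2 in the latter, Hoxa4 had 4 over 3 libraries, and Hoxb5, Hoxb9, Hoxc4, Hoxc5 and Hoxd11 had 1 each, all with GSK-126.

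By the threshold of an adjusted p under 0.05, 0 HOX genes passed in edgeR's fit without a filter, and DESeq2's independent filtering gave none of them an adjusted p. Of all genes in that fit, 0.0305% were called higher with GSK-126 and 0.00339% were called lower with it. At an unadjusted p under 0.05, 2 of the 19 HOX genes with a read passed in edgeR's fit, Hoxd8 and Hoxa3, where 3.57% of all 29476 genes did, and 1 passed in DESeq2, where 2.31% did. With the replicate block 1 passed, Hoxd8, where 13.5% of all genes did. The groups did not overlap for 2 of the 19, Hoxd8 higher and Hoxa3 lower with GSK-126. Of all genes with a read, 3.57% had every GSK-126 library above the DMSO libraries and 3.79% every one below, and over the 2703 genes with 20 to 60 reads, the range of Hoxd8, 4.51% and 5.4%.

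Summed over the family, HOX RNA was slightly higher with GSK-126, and Hoxd8 made up the difference. The 39 genes had 27, 25 and 34 reads in DMSO replicates 1, 2 and 3, or 3.11, 2.33 and 2.95 CPM, and 50, 36 and 25 reads in GSK-126 replicates 1, 2 and 3, or 3.78, 3.87 and 3.33 CPM. The means were 2.79 ± 0.413 and 3.66 ± 0.288 CPM (SD, n = 3 each). The groups did not overlap, but the exact Poisson intervals of single libraries did, running from 1.50 to 4.52 CPM over the DMSO libraries and from 2.16 to 5.35 over those with GSK-126. Without Hoxd8 the means were 2.64 ± 0.335 and 2.63 ± 0.794 CPM (SD, n = 3 each). Leaving Hoxd8 out was a step chosen after seeing the data, so the smaller difference without it is not independent of that choice. By pair the difference of all 39 genes was 0.674, 1.54 and 0.382 CPM, and without Hoxd8 it was -0.0429, 0.898 and -0.870 CPM, so that the pairs no longer had the same sign.

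Among the clusters, the sum of Hoxd went from 0.247 ± 0.119 to 1.07 ± 0.581 CPM (SD, n = 3 each), which is mostly Hoxd8. Hoxa had 1.37 ± 0.210 and 1.23 ± 0.349 CPM, Hoxb 1.02 ± 0.458 and 1.17 ± 0.673, and Hoxc 0.153 ± 0.266 and 0.190 ± 0.165 (SD, n = 3 each), differences smaller than the spread between libraries. By class, the anterior genes summed to 2.33 ± 0.0809 and 2.20 ± 0.640 CPM, and the posterior genes to 0.153 ± 0.266 and 0.170 ± 0.192 CPM (SD, n = 3 each). The central genes summed to 0.308 ± 0.353 and 1.28 ± 0.450 CPM (SD, n = 3 each), higher with GSK-126 in each of the 3 pairs, and to 0.154 ± 0.177 and 0.259 ± 0.340 CPM (SD, n = 3 each) without Hoxd8. No p is given for these sums, and here too Hoxd8 was left out after its values were seen.

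**Figure D4:**
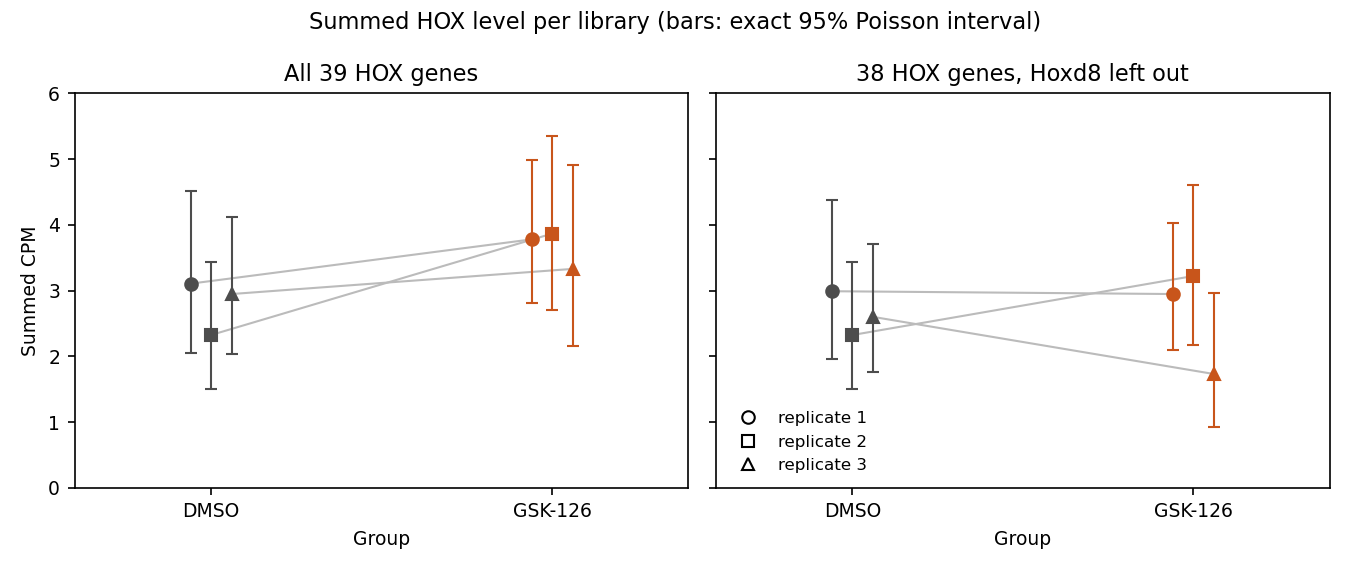
Summed CPM of the HOX genes in each library (y axis, linear from 0), with all 39 genes on the left and without Hoxd8 on the right. Markers give the replicate number, vertical bars the exact 95% Poisson interval and grey lines join libraries of the same number. The left panel has all 3 GSK-126 libraries above the DMSO libraries, and the right panel does not. Hoxd8 was left out after its values were seen.

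Other transcripts of the clusters were as sparse. The spans of the 4 clusters, from the first base of a HOX gene to the last of another, are 105 kb on chromosome 6 (Hoxa), 174 kb on chromosome 11 (Hoxb), 116 kb on chromosome 15 (Hoxc) and 96.8 kb on chromosome 2 (Hoxd), and they hold 46 further annotated genes. Of these, 9 had a read, with 86 reads together, all of them in Hoxa and Hoxb, so the Hoxd span had no read outside its HOX genes. The 7 microRNA genes had 0 reads, but poly-A RNA does not measure mature microRNAs. Hoxb3os, the antisense RNA of Hoxb3, had 44 reads, with 8, 3 and 12 in DMSO replicates 1, 2 and 3 and 8, 6 and 7 in GSK-126 replicates 1, 2 and 3. Hoxaas2, a noncoding RNA between Hoxa2 and Hoxa3, had 0, 3 and 0 reads with DMSO and 5, 5 and 3 with GSK-126 (0.0930 ± 0.161 and 0.438 ± 0.0863 CPM, SD, n = 3 each). Its groups did not overlap (p = 0.1 from the exact two-sided permutation test, adjusted p = 0.853 from edgeR). Hoxaas3 had 3 and 2 reads in GSK-126 replicates 1 and 2 and 0 elsewhere, and Hotairm1 had 6 reads with DMSO and 3 with GSK-126. Of a fixed list of 11 noncoding RNAs of the clusters, 10 were in the table, 6 of these had 0 reads (Hoxa11os, Hottip, Hoxb5os, Hotair, Hoxd3os1 and Haglr), and 0 passed the filter.

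Antisense reads bear on some of these values. In these tables, 30 of 30 genes that lie wholly inside the exons of an abundant gene (at least 6000 reads) on the opposite strand had reads, at a median density of 1.64 times that of the abundant gene, while 0 of 6 such genes on the same strand did. Reads from an overlap were thus assigned to genes of either strand, and a HOX gene and its antisense partner cannot be told apart where they overlap. That covers 52.9% of the exon bases of Hoxb3 and 27.3% of those of Hoxb2 (both Hoxb3os). Of the 39 genes, 23, among them Hoxd8, have no overlap.

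The cofactors that HOX proteins bind DNA with were present throughout. All 9 TALE homeodomain genes were tested, at a median of 28.9 CPM (range 2.72 to 96.5), and their sum was 315 to 348 CPM in the DMSO libraries and 305 to 340 with GSK-126. Meis1 had 66.8 ± 9.27 and 57.2 ± 6.82 CPM, Meis2 2.97 ± 1.18 and 2.47 ± 0.690, Pbx3 25.5 ± 0.748 and 27.3 ± 3.31, and Pknox1 49.3 ± 2.63 and 42.3 ± 1.52 CPM, with DMSO and GSK-126 respectively (SD, n = 3 each). On the scale per kilobase, Meis1 was at 5.89 CPM per kb, and the highest HOX gene, Hoxa2, at 0.241. None of the 9 passed in edgeR's fit, in DESeq2 or with the block, and none had an unadjusted p under 0.05 in edgeR's fit. Their median log2 fold change was -0.030, beside -0.0072 for all genes tested.

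The other lists around the HOX genes had 0 calls in edgeR's fit without the block and in DESeq2, and a few calls once the block was added. At an unadjusted p under 0.05 in edgeR's filtered fit without the block stood 0 of 3 activators and 0 of 11 retinoic acid genes. So did 1 of 25 Polycomb genes, 2 of 7 isthmus genes and 1 of 9 flanking genes. The share of all genes is at hand only for the fit without a filter, 3.57% of 29476. These counts are therefore not read as results about the lists. The numbers of the replicates were taken to pair the libraries, and with the block edgeR called 3.35% of tested genes higher with GSK-126 and 5.09% lower. Among 9 activators of HOX clusters, 3 were tested. With the block 1 was higher and 1 lower, the latter being Psip1, a chromatin factor that helps to hold the MLL complex on HOX genes (326 ± 52.4 and 275 ± 47.6 CPM, SD, n = 3 each; log2 fold change -0.25, edgeR's adjusted p = 0.0289). The call of Psip1 was lost with the block without pair 1 or pair 3 (edgeR's adjusted p = 0.173 and 0.144). Kmt2a, which encodes MLL itself, had 218 ± 31.6 and 187 ± 19.0 CPM (SD, n = 3 each) and did not pass. Cdx1, Cdx2, Cdx4 and Egr2 had 0 reads, as did Men1, a gene of most cell types for which the listed 0 is subject to the limit given above. Of 15 genes of retinoic acid signalling, the pathway that opens anterior HOX genes, 11 were tested and 1 passed with the block, higher with GSK-126. The receptor gene Rara had 16.0 ± 3.74 and 13.1 ± 1.99 CPM and the carrier gene Crabp2 4.51 ± 1.96 and 5.80 ± 1.79 CPM (SD, n = 3 each). The median log2 fold changes without the block were -0.22 for the 3 activators and 0.18 for the 11 retinoic acid genes, beside -0.0072 for all genes.

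All 25 genes of Polycomb and of the H3K27 demethylases, the machinery that keeps HOX clusters shut or opens them, were tested. With the block 0 were higher and 2 lower. Jarid2, a PRC2 subunit, had 219 ± 70.5 and 149 ± 48.5 CPM (log2 fold change -0.56, edgeR's adjusted p = 5.3e-05), and Cbx6, a PRC1 subunit, 270 ± 33.1 and 210 ± 26.0 CPM (-0.36, edgeR's adjusted p = 0.00228, SD, n = 3 each). Ezh2, the target of GSK-126, had 36.4 ± 6.94 and 33.5 ± 7.80 CPM and Bmi1 76.8 ± 12.8 and 90.0 ± 3.10 CPM (SD, n = 3 each), and neither passed. Jarid2 and Cbx6 remained past the threshold without any of the 3 pairs. The list's median log2 fold change in the fit without the block was -0.084.

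Some genes of the isthmus and rhombomere 1, the HOX-free origin of the cerebellum, were read more than any HOX gene, and others were not. All 10 had reads and 7 were tested, with En2 at 45.5 CPM per kb. Fgf8, Wnt1, Fgf17 and Pax5 had 0.00933, 0.0299, 0.0636 and 0.128 CPM per kb, below the 0.241 of Hoxa2. En2 had 190 ± 40.8 and 131 ± 36.9 CPM (SD, n = 3 each), and it was lower with the block (log2 fold change -0.55, edgeR's adjusted p = 1.1e-04), also without any of the 3 pairs. En1 had 4.66 ± 0.300 and 6.99 ± 1.08 CPM and Gbx2 2.22 ± 0.332 and 3.29 ± 0.557 CPM (SD, n = 3 each), both without overlap between the groups and neither past the threshold. The median log2 fold change of the list was -0.0065 without the block. Of the 14 genes that flank the clusters, 9 were tested, at a median log2 fold change of 0.040, and 0 passed with the block. Evx1 and Evx2, the homeobox genes at the posterior ends of Hoxa and Hoxd, had 0 reads, while Hnrnpa1, beside Hoxc, had 353 ± 45.6 and 407 ± 14.4 CPM, Cbx5 244 ± 13.6 and 216 ± 16.1 CPM and Calcoco1 57.4 ± 6.18 and 46.4 ± 2.99 CPM (SD, n = 3 each).

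**Figure D5:**
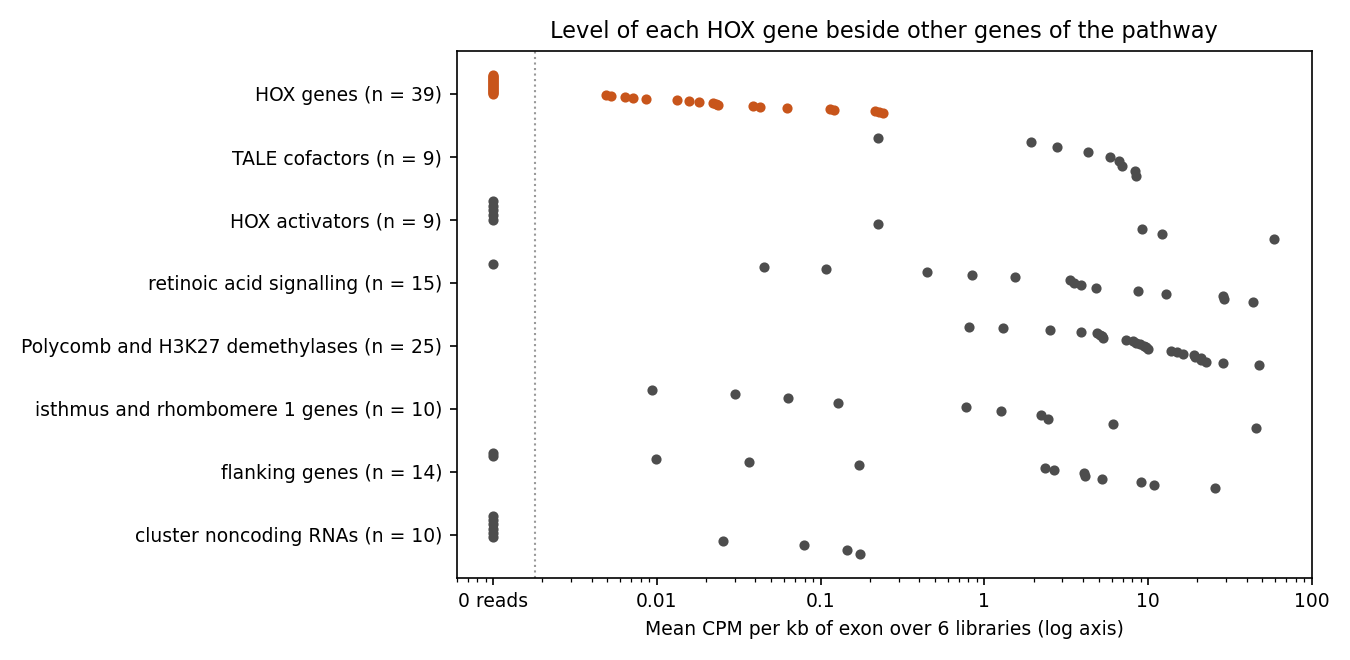
Mean level over 6 libraries of each HOX gene (orange) and of the genes of 7 other lists (grey), on a logarithmic x axis in CPM per kilobase of exon, with genes without a read to the left of the dotted line. The highest HOX gene lies at 0.241 CPM per kb, and 8 of the 9 TALE cofactors and all 25 Polycomb and demethylase genes lie to its right.

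Markers of other cells were abundant in these cultures, and some moved in the same direction as Hoxd8. All 10 granule neuron markers were read, with sums of 3481 to 5480 CPM in the DMSO libraries and 2819 to 4290 with GSK-126, lower with GSK-126 in each of the 3 pairs. All 8 fibroblast and meningeal markers were read, at 7329 to 9600 and 8067 to 10306 CPM, and all 8 endothelial and mural markers, at 480 to 791 and 703 to 952 CPM, both lists higher with GSK-126 in each pair. The fibroblast and meningeal sum exceeded the granule neuron sum in every library, but the medians of the lists lay the other way. Over the 6 libraries the median marker had 162 CPM for fibroblasts and meninges and 266 CPM for granule neurons. Sums over different genes do not measure the shares of cells. The 7 microglia markers, also higher in each pair, summed to 187 to 407 and 267 to 501 CPM, the 9 glia markers to 2297 to 6942 and 2257 to 7282, the 7 choroid plexus and ependymal markers to 279 to 533 and 275 to 466, and the 7 inhibitory neuron markers, lower in each pair, to 203 to 234 and 158 to 192, with no marker of these lists at 0. Among 10 markers of brainstem neurons, which come from hindbrain with HOX expression, Isl1 was at 0 and the list summed to 43.1 to 51.9 and 34.1 to 56.4 CPM. Tlx3, Lbx1 and Slc6a5 carried that sum, and the other 7 had means under 1 CPM in both groups (median of the list 0.419 CPM). The part of any of these cells in the HOX reads was not tested.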

How the data were processed

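Per the labels and the study's methods, poly-A RNA of 6 CGN cultures was sequenced as 150 bp read pairs. The authors trimmed reads with Trimmomatic 0.38, aligned them to GRCm38 with STAR 2.7.2b, counted reads on Gencode exons with HTSeq, and deposited raw counts per gene; the strand setting is not given in the sources used here. Lines that name no gene held 58.7% to 60.7% of reads and were left out. All 55341 symbols are in GENCODE M21, which gave identifiers, coordinates and overlaps.

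Counts were scaled by TMM and tested in edgeR 4.0.16 (R 4.3.3; filterByExpr, quasi-likelihood test, Benjamini-Hochberg over all genes, adjusted p under 0.05), for 3 DMSO against 3 GSK-126 libraries without a block. Since 0 HOX genes passed the filter, their fold changes come from the same fit without it. The standard errors given with edgeR's values were derived from the test, as the absolute log2 fold change over the square root of its F statistic. CPM is counts over total counts times the TMM factor. Exact permutation and Poisson values used scipy 1.17.1, and all permutation tests ignored the pairing of libraries by replicate number. DESeq2 1.42.0, other scalings and filters, single libraries left out and the block were alternatives. Deviations from group means correlated across genes for libraries with the same number (0.561, 0.634 and 0.487, at most 0.00638 for different numbers). The labels' numbers were therefore taken to pair the libraries. Centring within each group ties the values of different numbers to those of the same number, so the former are not separate evidence. The filtered fit, the fits with the block and DESeq2 were tested on simulated data, with changes placed only in genes above the level of every HOX gene. The fit that gave the HOX fold changes, without a filter or a block, was not tested in this way. Promoter windows are RefSeq's.

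The HOX genes, the other lists and the tests were chosen with earlier results of these data known, and the lists were written by hand. Members with at least 10 counts in 1 library (Hoxd8, Hoxb2) are given by library, the others by range or as named after their values were seen, with up to 3 genes of smallest p per other list, Ezh2, Meis1, Meis2 and Pbx3. Hoxd8 and Hoxb2 reached 10 counts with GSK-126 alone, so this rule drew on the values that were compared. Single-gene results of 4 genes that this rule or the member list covers are not reported here, and Haglros was not analysed here.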

Additional observations from a re-analysis of the deposited data

How the results depend on the processing

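No HOX gene passed the threshold in any fit, but many of these fits could not have called one. No HOX gene passed edgeR's filter, its stricter form, or the filter with a library left out. DESeq2 without the block gave no HOX gene an adjusted p. The fits of edgeR without a filter did test HOX genes, and 0 were called there whether the scaling, the block or the libraries changed. The count of all genes called, 0 in edgeR's filtered fit without the block, was 21 with DESeq2, 10 without a filter, 1412 with the replicate block, 951 with the block in DESeq2, and 1088, 833 and 1277 with the block without pair 1, 2 and 3. The list counts that follow leave out the cell type markers. With the block, edgeR called 1 of 10 granule neuron markers higher and 6 lower, and 3 of 7 inhibitory neuron markers lower. It called 2 markers each of endothelial and mural cells, microglia and glia higher, and none of the remaining marker lists. Calls of the other lists, 0 without the block, were for HOX activators 2 with the block, 2 with the block in DESeq2, and 1, 2 and 1 without pair 1, 2 and 3; for retinoic acid signalling 1 with the block and 1 without pair 1; for Polycomb and demethylases 2 with the block, 2 in DESeq2, and 2, 3 and 4 without pair 1, 2 and 3; for isthmus and rhombomere 1 genes 1 with the block, 1 in DESeq2 and 1 without each pair; and for flanking genes 1 without pair 1. HOX genes detected numbered 19, 11 when at least 3 counts in a library were asked for, and 16 to 18 with a library left out. The summed HOX difference, 0.866 CPM, was 1.54 in pair 2, 0.382 in pair 3 and -0.00488 without Hoxd8, a step chosen after seeing the data, and 0.632 to 1.03 with a library left out. The log2 fold change of Hoxd8 stayed between 2.02 and 3.99 with a library or pair left out. Signs turned for Hoxb2 (-0.082 and -0.016 with DMSO replicate 2 or GSK-126 replicate 1 left out, -0.083 with the block without pair 2), Hoxb3 (-0.054 without GSK-126 replicate 2, -0.55 with the block without pair 2), Hoxa2 (0.13 with the block in DESeq2, 0.65 without DMSO replicate 1, 0.79 and 0.27 with the block without pair 1 and 2), Meis2 (0.022 without DMSO replicate 1, and down to -0.53), Crabp2 (-0.0048 with the block without pair 2) and Ezh2 (0.048 and 0.032 with DMSO replicate 1 or GSK-126 replicate 3 left out, and down to -0.29), and the cause was not tested. At these depths a HOX gene below 0.227 to 0.400 CPM can go unread in a library.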
